A study of Arabidopsis thaliana with 6 samples.

Results

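The 6 genes of tryptophan, glucosinolate and related metabolism followed in rosette leaves were AT2G04400 (IGPS, tryptophan synthesis), UGT74B1 (core glucosinolate pathway), AT2G31790 (UGT74C1) and BCAT4 (aliphatic glucosinolate branch), the tau glutathione transferase GSTU20, and the berberine bridge enzyme-like gene AT1G26390. They were grouped by pathway role, with earlier results of these data known, and each had 1 probe set of its own, so 6 of the 22746 probe sets tested are described. Mature rosette leaves of Arabidopsis thaliana were collected 5, 6 and 7 weeks after sowing from wild type (WT) and from plants mutated in MLO2, MLO6 and MLO12 together, under normal growth conditions with no inoculation named. There was 1 Affymetrix array for each genotype and age, which made 6 arrays and 3 per genotype. MLO genes encode membrane proteins, and loss of these 3 gives resistance to powdery mildew fungi. The labels name no accession, allele or number of plants per array. With 1 array per genotype and age, the 3 ages served as the replicates of each genotype. The p-values therefore cover only the spread among the 6 arrays. In the fit for genotype and age, that spread is the change of the genotype difference between ages.

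Tryptophan is made in the plastid from chorismate, and IGPS closes the indole ring of its precursor. Arabidopsis turns tryptophan into indole glucosinolates, camalexin and other indolic defence compounds, while methionine feeds the aliphatic glucosinolates. Glucosinolates share a core pathway in which an oxime is activated, conjugated to glutathione, cleaved to a thiohydroximate, glucosylated and sulfated. The series title places the arrays in work on indolic compounds in the defence of mlo2 plants against fungi.

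Values are deposited log2 values made by RMA, 1 per probe set and array. They are quoted in the order 5, 6 and 7 weeks. A difference of 1 is 2-fold, and values of different genes cannot be set against each other. The leaf genes RCA, SBPASE and PRK read between 9.69 and 12.7 on all arrays, while FMA, a guard cell regulator, read 3.52 to 4.06. The median of all values was 3.83. The annotation used gave MLO2, MLO6 and MLO12 0 probe sets of their own, and the genotype labels were not checked at these loci. The WT array of 6 weeks had the lowest mean correlation with the other arrays (0.970, against 0.975 to 0.982) and lay at 45.2 on a first principal component that held 49.1% of the variance. Both 5-week arrays lay at the other end of it, at -42.5 and -40.9. The genotype estimates of the members are therefore also given without the 6-week arrays. Leaf age and anything shared by a harvest, such as its day or its processing, cannot be told apart.

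The members are described by 4 kinds of course, which overlap. AT2G04400 and UGT74B1 read lower in the mutant than in WT at 5 weeks and higher at 6 and 7 weeks. BCAT4 read lower in the mutant at all 3 ages, as did GSTU20 by smaller distances. AT2G31790 and GSTU20 read lower at 6 and 7 weeks than at 5 weeks in both genotypes. AT1G26390 read higher with each week in both genotypes, with the larger step in the mutant. It too was lower in the mutant at 5 weeks and higher at 7 weeks, with the genotypes 0.013 apart at 6 weeks. Because the samples were bulk leaf RNA, fewer cells of a type and less RNA per cell cannot be told apart. No member passed an adjusted p of 0.05 for genotype, age or their interaction, and neither did any other probe set (0% of those tested).

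**Figure D1:**
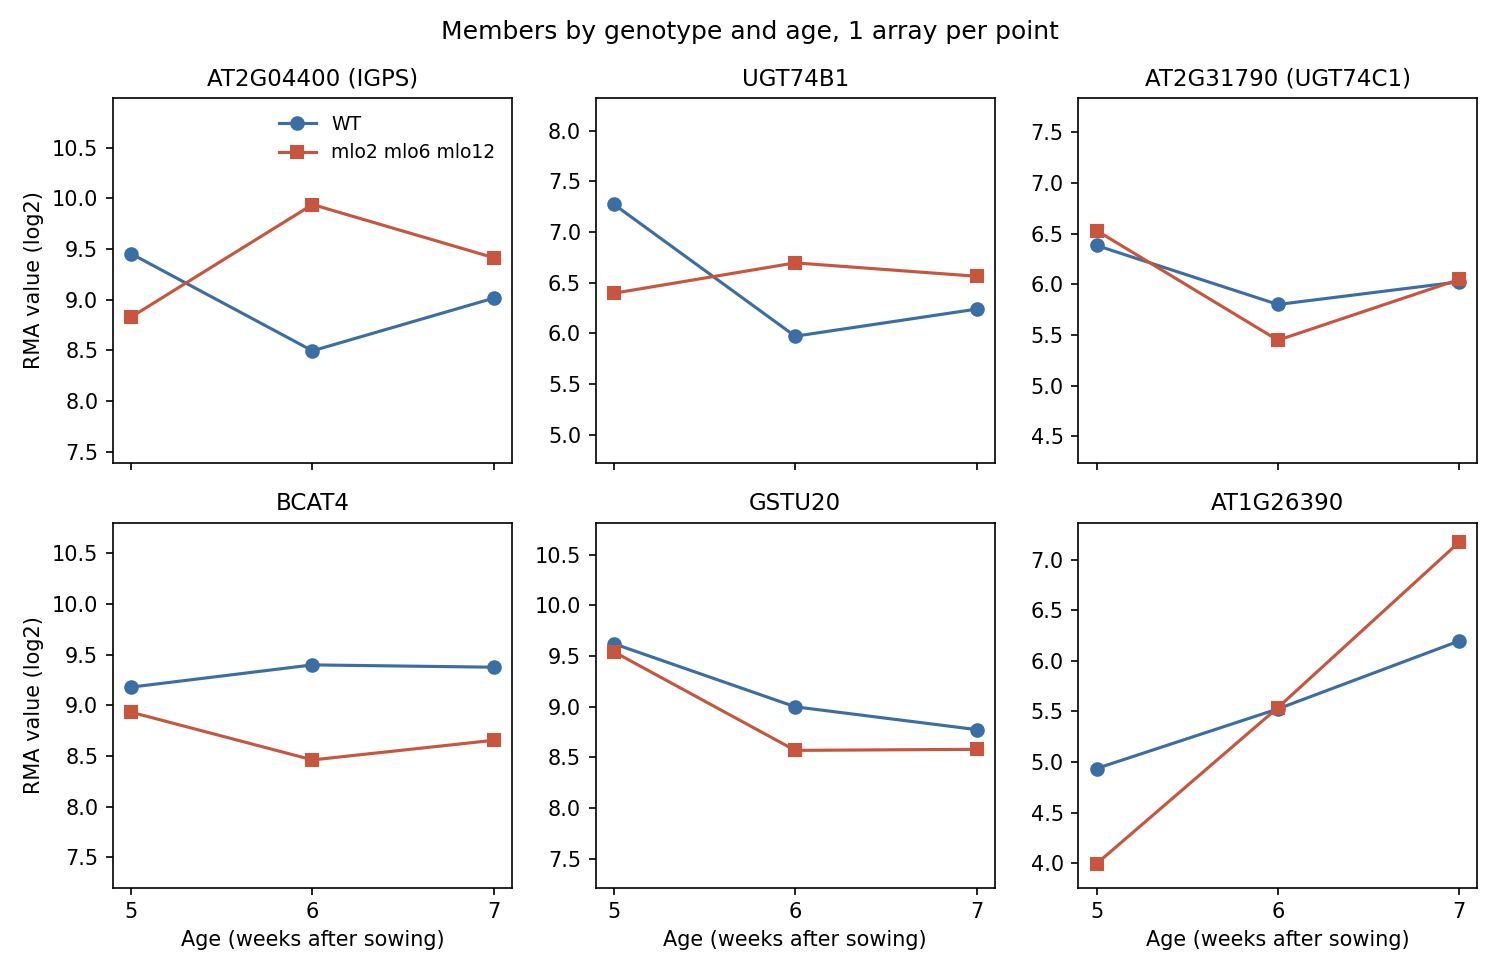
RMA value (log2, vertical axis) of each member against age in weeks after sowing (horizontal axis), WT as circles and the mutant as squares, 1 array per point and all panels on the same span of 3.6 log2 units. The genotype lines cross in AT2G04400, UGT74B1, AT2G31790 and AT1G26390 after 5 weeks, stay apart in BCAT4 and run together downwards in GSTU20. AT1G26390 spans 3.996 to 7.17 in the mutant and 4.94 to 6.20 in WT.

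AT2G04400, which makes indole-3-glycerol phosphate in tryptophan synthesis, read 9.45, 8.50 and 9.02 in WT. In the mutant it read 8.83, 9.94 and 9.41. Its lowest value was thus that of the 6-week WT array and its highest that of the 6-week mutant array, and the genotypes overlapped. Mutant minus WT was -0.63 for the 5-week pair of arrays, 1.44 for the 6-week pair and 0.40 for the 7-week pair. The difference at 6 weeks is 2.72-fold and was the 1 member difference that reached a log2 size of 1, among 18 over the 3 ages. At that size 4.93% of all probe sets were counted at 6 weeks, 1.31% at 5 weeks and 1.85% at 7 weeks. Over ages the estimate was 0.41 ± 0.40 (SE, log2, 3 arrays per genotype; limma adjusted p = 0.861). Without the 6-week arrays it was -0.11, so its sign came from 6 weeks.

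UGT74B1, which adds glucose to thiohydroximates in the core glucosinolate pathway, read 7.27, 5.97 and 6.24 in WT. The mutant read 6.40, 6.70 and 6.56. The 5-week WT array was the highest and the 6-week WT array the lowest, with the 3 mutant values between the 7-week and the 5-week WT values. Differences between mutant and WT were -0.88, 0.72 and 0.32 at the 3 ages. They nearly cancelled in the estimate over ages, 0.057 ± 0.33 (adjusted p = 0.982), which was -0.28 without the 6-week arrays. WT spanned 1.30 from 5 to 6 weeks, a 2.47-fold lower level, while the same interval in the mutant was a difference of 0.30 upwards.

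AT2G04400 and UGT74B1 thus shared a pattern: both later WT arrays were below the 5-week WT array and both later mutant arrays above the 5-week mutant array. Of all probe sets, 6.66% did the same. From its 5-week value, AT2G04400 was -0.96 and -0.44 away at 6 and 7 weeks in WT, against 1.11 and 0.59 for the mutant. For UGT74B1 the WT distances were -1.30 and -1.04 and the mutant distances 0.30 and 0.17. The change of the genotype difference over the 2 weeks was 1.02 ± 0.92 for AT2G04400 and 1.20 ± 0.71 for UGT74B1 (limma adjusted p = 1 for each). Both courses rest on a single 5-week array per genotype. Without the 5-week WT array the interaction estimates were -0.46 and -0.37, with the sign turned, and without the 5-week mutant array that of AT2G04400 was -0.61.

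BCAT4, the aminotransferase that starts the methionine chain elongation of aliphatic glucosinolates, read 9.18, 9.40 and 9.38 in WT. In the mutant it read 8.93, 8.46 and 8.65. All 3 mutant arrays were below all 3 WT arrays, as in 5.5% of all probe sets. The differences were -0.25, -0.94 and -0.72, so the mutant was lower at each age. That held for 2 of 6 members, BCAT4 and GSTU20, against 16.7% of probe sets. Over ages the estimate was -0.64 ± 0.17, a 1.55-fold lower level, with a limma unadjusted p of 0.0145 and an adjusted p of 0.718. It ranked 459 of 22746 by p. An estimate below 0 was held by 3 of 6 members (AT2G31790 was the other), against 56.3% of probe sets. BCAT4 was the only member with an unadjusted p under 0.05 for genotype, where 2.59% of probe sets were lower and 6.52% differed in either direction at that level. Over the alternative fits the estimate ran from -0.83 without a 5-week array to -0.48 without the 6-week arrays, with limma adjusted p-values of 0.44 to 0.999. As all 3 differences were below 0, leaving arrays out could not turn its sign.

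**Figure D2:**
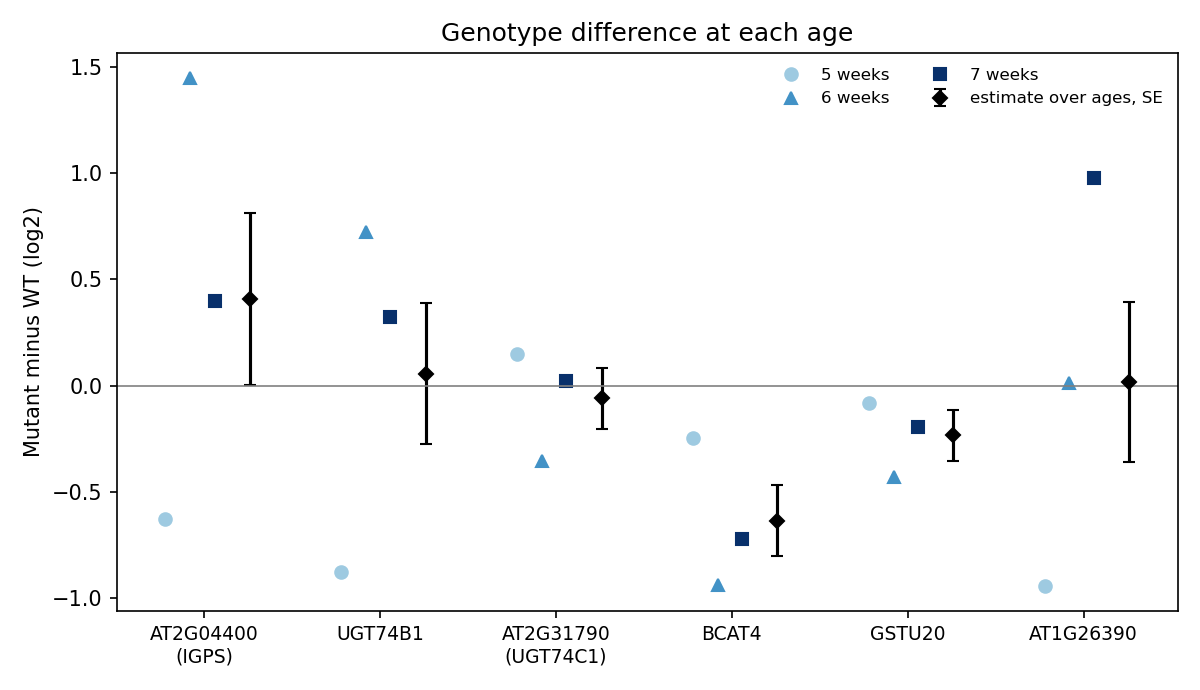
Mutant minus WT (log2, vertical axis) for each member at 5, 6 and 7 weeks, 1 array per side, with the estimate over ages as a diamond and its SE from the additive fit as a bar. The 3 BCAT4 points lie between -0.94 and -0.25, and those of AT2G04400, UGT74B1, AT2G31790 and AT1G26390 lie on both sides of 0.

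BCAT4 also took opposite courses after 5 weeks, by 0.22 and 0.20 in WT and by -0.47 and -0.28 in the mutant at 6 and 7 weeks. Among all probe sets 7.73% were higher in WT and lower in the mutant at both later ages. The interaction estimate was -0.47 ± 0.40 (adjusted p = 1), and without the 5-week mutant array it was 0.19. With AT2G04400 and UGT74B1, 3 of the 6 members had opposite courses in the genotypes, against 14.4% of all probe sets. For 7 against 5 weeks alone the count was also 3 of 6, against 33.8% of all probe sets.

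AT2G31790, the glucosyltransferase UGT74C1 assigned to the aliphatic branch, read 6.38, 5.80 and 6.02 in WT. The mutant read 6.53, 5.45 and 6.05. Both genotypes were lowest at 6 weeks and highest at 5 weeks, and the genotypes differed by 0.15, -0.35 and 0.024. The estimate for genotype was -0.061 ± 0.14 (adjusted p = 0.945) and turned to 0.086 without the 6-week arrays. From 5 to 6 weeks the estimate over genotypes was -0.83 ± 0.17, a 1.78-fold lower level, with an unadjusted p of 0.0058 and an adjusted p of 0.129. From 5 to 7 weeks it was -0.42 ± 0.17 (adjusted p = 0.341).

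GSTU20, a tau-class glutathione transferase linked to aliphatic glucosinolate synthesis, gave 9.62, 8.999 and 8.77 on the WT arrays. On the mutant arrays it gave 9.54, 8.57 and 8.58. Both 5-week arrays were above the 4 later ones, and the mutant was below WT at each age, by -0.08, -0.43 and -0.19. For genotype the estimate was -0.23 ± 0.12 (adjusted p = 0.786), and -0.14 without the 6-week arrays. The age estimate was -0.91 ± 0.15 from 5 to 7 weeks, a 1.87-fold lower level (unadjusted p = 0.00223, adjusted p = 0.0987). It was -0.80 ± 0.15 from 5 to 6 weeks (adjusted p = 0.117) and -0.11 ± 0.15 from 6 to 7 weeks (adjusted p = 0.926), so most of the distance lay before 6 weeks. Without the 6-week arrays the 7 minus 5 week value was the same with an adjusted p of 0.0274, in a fit with 1 residual degree of freedom in which 1755 probe sets passed. Over all alternatives its adjusted p was 0.0274 to 0.661.

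The array controls also differed with age and genotype. Poly-A spike-in controls averaged 3.83, 4.85 and 4.88 on the WT arrays, and 3.997, 4.22 and 4.55 on the mutant arrays. The 25S rRNA control, an RNA without a poly-A tail, read 7.51, 4.08 and 3.87 on the WT arrays, with 6.59, 5.39 and 5.70 on the mutant arrays. Its difference between mutant and WT was -0.92, 1.31 and 1.83, below 0 at 5 weeks and above 0 later, as in AT2G04400, UGT74B1 and AT1G26390. That of AT1G26390 (-0.94, 0.013 and 0.98) also rose with each week, while those of AT2G04400 and UGT74B1 were smaller at 7 than at 6 weeks. The part of these controls in the courses of the members was not tested.

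AT1G26390 encodes a berberine bridge enzyme-like protein, one of a family of flavin-dependent oxidases. In WT it read 4.94, 5.53 and 6.20. In the mutant it read 3.996, 5.54 and 7.17. The mutant held both the lowest and the highest value, and the genotypes met at 6 weeks. From 5 to 7 weeks the distance was 1.26 in WT, or 2.39-fold, and 3.18 in the mutant, or 9.05-fold, of which 1.64 lay between 6 and 7 weeks. Differences between mutant and WT were -0.94, 0.013 and 0.98. The genotype estimate was accordingly near 0, at 0.016 ± 0.38 (adjusted p = 0.995), and 0.018 without the 6-week arrays. The age estimate was 2.22 ± 0.46 from 5 to 7 weeks (limma unadjusted p = 0.00575, adjusted p = 0.129). With limma-trend the adjusted p for age was 0.041 and with dim probe sets left out 0.0434, within a range of 0.041 to 0.657 over all alternatives.

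The genotype difference of AT1G26390 grew by an estimated 1.92 ± 0.29 over the 2 weeks, a 3.78-fold change of the ratio. It ranked 2 of 22746 by interaction p (unadjusted 0.00213, adjusted p = 1). The gene was picked with this result known, so the rank is a description. Unadjusted p-values under 0.05 were held by 1 of 6 members for the interaction, against 1.02% of all probe sets. For age the count was 2 of 6 from 5 to 7 weeks (GSTU20 and AT1G26390, against 16.2%), 2 of 6 from 5 to 6 weeks (GSTU20 and AT2G31790, against 18.5%) and 0 of 6 from 6 to 7 weeks (against 5.78%). The interaction estimate was 1.82 to 2.01 with any 1 array left out, and its adjusted p over all alternatives 0.222 to 1.

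**Figure D3:**
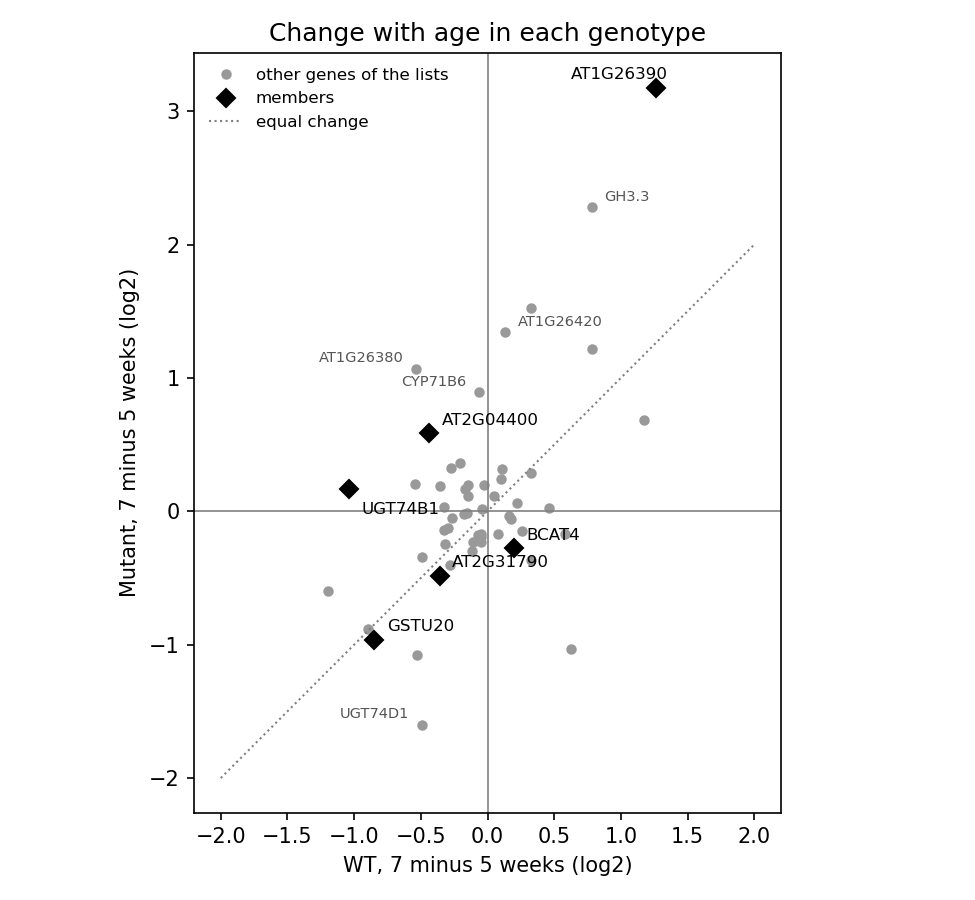
Difference between 7 and 5 weeks in the mutant (log2, vertical axis) against that in WT (log2, horizontal axis) for the 6 members as diamonds and 48 other genes of the pathway lists as dots, each from 1 array per point of time, with the line of equal change dotted. AT1G26390 lies furthest out at 1.26 and 3.18, GSTU20 lies near the line at -0.85 and -0.96, and AT2G04400 and UGT74B1 lie left of 0 in WT and above 0 in the mutant.

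Each level was 1 array, so the order of the levels is a description. A gap between neighbouring values was set against the moderated SD of the additive fit. That SD also holds any change of the genotype difference with age, and a larger gap does not show that levels differ. For AT2G04400 none of the 5 gaps exceeded its SD of 0.49, and for UGT74B1 only the gap of 0.58 below the 5-week WT array exceeded 0.41. For AT1G26390 the SD was 0.46 and only the 2 arrays of 6 weeks, 0.013 apart, did not differ by more. For GSTU20, with an SD of 0.15, the pairs of 5-week arrays and of later mutant arrays were within it. For BCAT4, with an SD of 0.21, the highest mutant value and the lowest WT value were 0.25 apart.

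Around the members, 156 loci of these pathways were listed, of which 44 had a probe set of their own, and 10 further tau glutathione transferases were found by symbol. The annotation used names no gene for 8730 of the 22746 probe sets, so a gene without a named probe set may still be on the array. Indolic synthesis could be followed at few steps. Of 17 indole glucosinolate genes, among them CYP79B2, CYP83B1 and MYB51, 0 had a probe set that this annotation gives to them alone. One was held by 3 of 15 tryptophan genes, 2 of 11 genes of camalexin and indole carbonyl nitriles, 4 of 18 genes of glucosinolate breakdown and transport, and 6 of 31 aliphatic glucosinolate genes. The members therefore stand for their own genes and not for whole steps or branches.

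In the genotype comparison, estimates above 0 were found for 25 of the 48 measured genes besides the members. Their median was 0.011, and that of all probe sets -0.025. Of the 48, 3 were higher at an unadjusted p under 0.05, 0 were lower, and 0 passed the adjusted threshold. These 3 are 6.25% of the 48, near the 6.52% of all probe sets, and their values are given as a description. AT1G22410, listed for the shikimate pathway that supplies chorismate, gave 8.66, 8.65 and 8.33 on the WT arrays, with 8.96, 9.57 and 8.99 on the mutant arrays. Its estimate was 0.63 ± 0.15 (adjusted p = 0.715), with every mutant array above every WT array. GTR2, a glucosinolate transporter, had an estimate of 0.43 ± 0.15 and differences of 0.12, 0.50 and 0.67. AT4G20830, a berberine bridge enzyme-like gene, had an estimate of 0.59 ± 0.21 and differences of 0.05, 0.94 and 0.80 (adjusted p = 0.754 for both). Without the 6-week arrays the estimates were 0.48 for AT1G22410, 0.39 for GTR2 and 0.42 for AT4G20830. Of the 6 measured aliphatic genes, 5 were below 0 (against 56.3% of all probe sets), with a median of -0.15. As 3 of the 6 are members, chosen with earlier results known, this count is a description. The others were AOP1 at 0.49, AT2G25450 at -0.28 and AOP3 at -0.074, and AOP3 stayed below the median of all values on every array. At single ages, with 1 array per side, differences of at least 1 among the 48 were all higher in the mutant at the age named. They were AOP1 at 5 weeks (1.36), GSTU16 at 6 weeks (1.17), and AT1G26420 (1.20) and AT1G30700 (1.27) at 7 weeks. Of all probe sets, 1.31% reached that size in either direction at 5 weeks, 4.93% at 6 weeks and 1.85% at 7 weeks. At 7 weeks AOP1 (-0.30) and GSTU16 (-0.32) were lower in the mutant.

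The course of AT2G04400 and UGT74B1, lower in WT and higher in the mutant after 5 weeks, was also held by 6 of the 48 other genes (12.5%, against 6.66% of all probe sets). Of these 6, AOP3 and AT1G30740 stayed below the median of all values on every array. Both measured genes of the camalexin and indole carbonyl nitrile list, 2 of its 11, were among them. One was AT1G26380, next to AT1G26390, with WT arrays at 4.52, 3.97 and 3.99 and mutant arrays at 3.62, 4.96 and 4.69. The other was CYP71B6, a cytochrome P450 of indole acetonitrile metabolism, with WT arrays at 7.46, 7.10 and 7.40 and mutant arrays at 7.19, 7.73 and 8.08. The interaction estimates were 1.60 ± 0.74 for AT1G26380 and 0.96 ± 0.39 for CYP71B6 (limma unadjusted p = 0.0916 and 0.0666). Each of these 6 courses rests on a single 5-week array per genotype. In AT4G20830 the genotypes started level, at 7.72 in WT and 7.76 in the mutant, and stood at 7.17 and 7.97 at 7 weeks. For AT1G22410, the sixth, WT at 6 weeks was below 5 weeks by less than 0.01. Judged on 7 against 5 weeks alone, 12 of the 48 had the same pair of directions, against 16.5% of all probe sets.

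Berberine bridge enzyme-like genes were the best covered list, with 20 of 24 measured. AT1G26390 lies among 5 adjacent members, AT1G26380 to AT1G26420. AT1G26400 and AT1G26410 stayed between 2.19 and 2.75 on all arrays, below the median of all values. AT1G26420 gave 3.296, 3.21 and 3.43 on the WT arrays, with 3.28, 3.75 and 4.62 on the mutant arrays and differences of -0.015, 0.54 and 1.20. Like AT1G26390 it was highest on the 7-week mutant array, and its interaction estimate was 1.21 ± 0.35 (adjusted p = 1). Of the 20 genes 16 had interaction estimates above 0, with a median of 0.21, while 13 stayed below the median of all values on every array. Over all probe sets 49.96% were above 0. The 20 include AT1G26390, which was picked with its interaction result known, so this count is a description. Adjacent family members can share sequence, and hybridization of one gene's transcripts to another's probes was not tested.

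**Figure D4:**
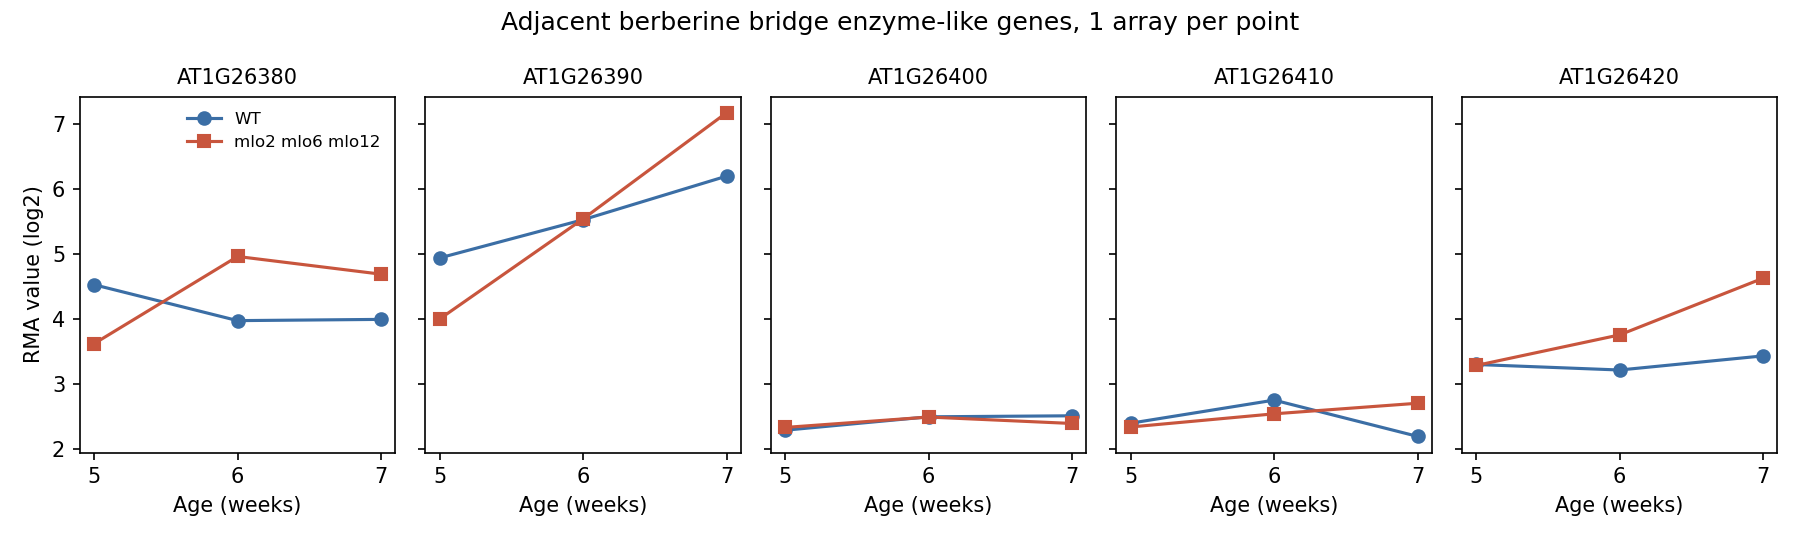
RMA value (log2, vertical axis) against age in weeks (horizontal axis) for 5 adjacent berberine bridge enzyme-like genes, WT as circles and the mutant as squares, 1 array per point. AT1G26390 and AT1G26420 are highest on the 7-week mutant array, AT1G26380 is highest on the 6-week mutant array, and AT1G26400 and AT1G26410 stay at or below 2.75.

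Among the other families, GSTU21, GSTU22 and GSTU23, the measured tau-class neighbours of GSTU20, read 2.23 to 2.80 on all arrays, below the median of all values. Of the other 10 tau-class genes, only GSTU26 had a limma unadjusted p under 0.05 from 5 to 7 weeks (against 16.2% of all probe sets). Its estimate was -0.34 ± 0.13 (adjusted p = 0.304), and it read 2.60 to 3.08, also below that median. From 5 to 6 weeks only GSTU16 did (against 18.5% of all probe sets), at -1.08 ± 0.37 (adjusted p = 0.237). UGT74D1, a relative of both UGT74 members that lies near AT2G31790, gave 4.37, 4.40 and 3.88 on the WT arrays, with 5.04, 4.09 and 3.44 on the mutant arrays. Its age estimate was -1.05 ± 0.31 (adjusted p = 0.209) and its interaction estimate -1.11 ± 0.37 (adjusted p = 1). AT5G48220, listed as IGPS2 in tryptophan synthesis beside AT2G04400 (IGPS), took another course. WT went from 7.75 at 5 weeks to 6.86 at 7 weeks and the mutant from 8.01 to 7.12. The age estimate was -0.89 ± 0.13 (adjusted p = 0.0901) and the interaction estimate 0.0091 ± 0.29.

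For age over the 48 other genes, 3 were higher and 4 lower at 7 than at 5 weeks at an unadjusted p under 0.05, and 0 passed the adjusted threshold. That is 14.6% of the 48, against 16.2% of all probe sets. Besides GSTU26, UGT74D1 and AT5G48220 these were AT5G44400 at -0.90 ± 0.19, AT2G34810 at 0.93 ± 0.17, and the auxin-conjugating genes GH3.3 at 1.53 ± 0.37 and WES1 (GH3.5) at 0.999 ± 0.22. Their adjusted p-values were 0.112 to 0.157. AT2G34810 and AT5G44400 are berberine bridge enzyme-like genes, and their estimates had opposite signs.

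The genes most like each member were taken by Pearson correlation over the 6 arrays, among 2763 named genes with a range of at least 1. The arrays share genotype, age and any array effect, so the values are descriptive. For AT1G26390 the first was GH3.3, which forms amino acid conjugates of the indolic hormone auxin, at r = 0.996. GH3.3 gave 3.37, 3.87 and 4.15 on the WT arrays, with 2.60, 3.75 and 4.88 on the mutant arrays. It was also lowest on the 5-week and highest on the 7-week mutant array, and AT1G18720 and AT5G51570 followed it in likeness. For AT2G04400 they were AT5G10740 (0.966), AT1G18390 (0.964) and AT5G56350 (0.957). For UGT74B1 they were AT3G48080, AT2G26190 and AT4G22740, each read highest in WT at 5 weeks and lowest in WT at 6 weeks, like UGT74B1. GSTU20 was most like AT5G50740, BZIP61 and AT4G00755. AT2G31790 was most like AT1G53460, AT2G41950 and AT3G06980. BCAT4 had 0 genes over 0.95, and its closest, AT1G13380, reached 0.932, followed by AT5G49100 and AT5G42765.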

How the data were processed

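The deposited values were log2 values, and the authors used RMA, per the submitters' processing notes. Its version is not given in the sources used here. As a method, RMA corrects background, makes the arrays' distributions alike and summarises each probe set, so a change in total mRNA cannot be seen and dim probe sets are compressed. Depth does not apply to arrays, and precision is limited by having 6 of them. After 64 control probe sets were set aside, 22746 were fitted with limma 3.58.1 in R 4.3.3. Genotype and age effects came from an additive fit (genotype, and age as 3 levels), and the interaction from genotype by age as a number. Each fit left 2 residual degrees of freedom. EBayes moderated the variances, and p-values were adjusted by Benjamini-Hochberg over all 22746, with a threshold of 0.05. The fits were run on simulated data with log2 changes of 2 and 4 in size. That check does not cover smaller changes, such as the genotype estimates of the members. Differences at 1 age have 1 array per side and were counted at a log2 size of 1, with no test. The platform annotation gave 13513 probe sets 1 gene, gave 503 several and did not list 8730. Names came from it and from RefSeq's TAIR10.1 table, in which 13436 were found. The rule named the members, per list up to 4 genes of smallest p in the effect discussed, and the 3 genes most like each member. Genes named for an opposite course, a single-age difference or their place beside a member were chosen after their values were seen. Members and lists were chosen with earlier results of these data known. Alternatives changed the age term, the variance model, the array scaling, the filter on dim probe sets, the fold threshold and the arrays used.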

Additional observations from a re-analysis of the deposited data

Results flagged for a closer look

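Opposite courses in the genotypes drew attention to 3 members, since both later arrays of one genotype lay above its 5-week array and both of the other below it. Opposite courses of either kind were held by 14.4% of all probe sets, and by 33.8% when 7 weeks was set against 5 weeks alone. The mutant minus WT difference between 7 and 5 weeks moved by 1.02 for AT2G04400, by 1.20 for UGT74B1 and by -0.47 for BCAT4 on the log2 scale. The limma interaction test gave an adjusted p of 1 for each.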

How the results depend on the processing

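Of 678 alternative values, 593 kept their direction and side of the threshold or, for counts, stayed within 1.5 times, 38 turned sign, 33 counts moved further and 14 values passed a threshold they had missed. Of these 14, 12 are 4 genes (GSTU20, AT2G34810, AT5G48220 and WES1) for 7 against 5 weeks, with the same values without either 6-week array or without both, and the other 2 are AT1G26390. With age as 3 levels, an array left alone at its age is fitted exactly. For genotype, leaving out either array of an age therefore gave the same values. The same held for 7 against 5 weeks with the 6-week arrays. Some of the 678 values thus repeat others, and the counts are not of independent values. Why values moved was not tested. With limma-trend, adjusted p under 0.05 was met by 1 probe set for genotype, 258 for 7 against 5 weeks (1 member, AT1G26390), 66 for 6 against 5 weeks and 7 for 7 against 6 weeks. With dim probe sets left out, it was met by 249 (1 member, AT1G26390), 2 and 1 for the 3 age contrasts in that order. Without both 6-week arrays it was met by 1755 for 7 against 5 weeks (1 member, GSTU20). With 1 array left out, these counts ran from 0 to 1755 for 7 against 5 weeks (0 to 1 member) and from 0 to 3516 for 6 against 5 weeks.

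Members with an unadjusted p under 0.05 numbered 0 for genotype and 1 for 7 against 5 weeks without variance moderation, and 1 for 7 against 6 weeks with limma-trend or with dim probe sets left out. With 1 array left out they numbered 0 to 2 for genotype (0 without a 7-week array), 2 to 3 for 7 against 5 and for 6 against 5 weeks, 0 to 1 for 7 against 6 weeks and 0 to 2 for the interaction. They also numbered 3 for 6 against 5 weeks with limma-trend or with dim probe sets left out, and 3 for 7 against 5 weeks without both 6-week arrays. At a 1.5-fold threshold, 8 single-age differences were counted: 3 of 6 members at 5 weeks (6.87% of all probe sets), 3 at 6 weeks (18.6%) and 2 at 7 weeks (7.34%). On 7 against 5 weeks alone, a check added after the data were seen, 12 list genes were lower in WT and higher in the mutant.

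Signs turned without both 6-week arrays for genotype in AT2G04400 (-0.11), UGT74B1 (-0.28) and AT2G31790 (0.086). With arrays shifted to the same median, BCAT4 read 0.026 for 7 against 5 weeks and AT2G04400 0.0033 for 7 against 6 weeks. With 1 array left out, genotype ran from -0.11 to 0.92 in AT2G04400, -0.28 to 0.52 in UGT74B1, -0.16 to 0.086 in AT2G31790 and -0.46 to 0.49 in AT1G26390. The difference between 7 and 5 weeks ran from -0.70 to 0.85 in AT2G04400, -1.14 to 0.27 in UGT74B1 and -0.33 to 0.25 in BCAT4. For 6 against 5 weeks these were -0.70 to 0.86, -1.20 to 0.20 and -0.42 to 0.17. For 7 against 6 weeks they were -0.78 to 0.78, -0.43 to 0.57 and -0.14 to 0.31, with -0.25 to 0.039 in GSTU20. The interaction ran from -0.61 to 2.66 in AT2G04400, -0.37 to 2.77 in UGT74B1, -1.81 to 1.56 in AT2G31790, -1.14 to 0.19 in BCAT4 and -1.10 to 0.87 in GSTU20. The additive fit, with age as 3 levels, already compares the genotypes within each age.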
